A study of Homo sapiens with 5 samples.

Results

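The 10 genes described here, PTGER4, BCL6, TIPARP, RGS2, CRISPLD2, ANXA1, CDKN1C, GADD45A, GADD45B and SPSB1, are glucocorticoid-responsive genes of signalling, growth arrest and inflammation control, 10 of the 20037 protein-coding genes placed on chromosomes 1 to 22, X and Y of GRCh38. They were chosen by name from this gene table, with earlier results of these data known. The locus of each gene is its span plus 20 kb on either side. The cells were 786-O, an established human renal carcinoma line, profiled by CUT&Tag, in which a transposase tethered to an antibody marks DNA fragments near the bound protein for sequencing. Lactylation of lysine 12 on histone H4 (H4K12la) was profiled in 2 libraries of untreated control cells and in 2 libraries of cells given 10 µM dexamethasone, a synthetic glucocorticoid, for 48 h. The glucocorticoid receptor (GR) was profiled in 1 library of dexamethasone-treated cells. The labels name no genetic alteration in any group, and all 5 libraries share 1 cell line and 1 batch label.

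Glucocorticoids bind GR in the cytoplasm, and the receptor then moves to the nucleus, where it binds DNA directly at palindromic response elements or through other factors at open promoters and enhancers. Histone lactylation is an acylation of histone lysines with a group derived from lactate, found at promoters and enhancers of active genes. The genes of this set respond to the hormone in a range of tissues and act in prostaglandin, G protein, stress kinase and inflammatory signalling, in transcription and in the cell cycle.

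H4K12la peaks numbered 126594 and 112409 in control and 80721 and 67582 after dexamethasone, and 8065 GR peaks were listed. Peak height here is the whole-number signal that the authors deposited for each peak, with no depth scaling stated. The read depth of every library is unknown, so a lower height or a missing peak cannot be told apart from a shallower library, and fewer modified cells cannot be told apart from less modification per cell. A peak at the start in both control lists was found at 56.5% of all protein-coding genes. Of 10 renal carcinoma marker genes 7 had one, with PAX8 at heights of 140 and 119. Of 13 markers of leukocytes, endothelium, liver and nervous tissue 4 had one, and ALB had no peak anywhere in its locus. So few markers do not establish the identity of the cells. The mark is not a measure of RNA.

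Start sites came from RefSeq promoters for 7 members. GADD45A, CDKN1C and SPSB1 had no such entry, and for them both gene ends took the place of the start. A start window ran 1 kb either way. The promoters that carry the results below are shown 5′ to 3′ on the gene's strand, from 250 bases before to 50 bases after the start (RefSeq, GRCh38.p14). The first 4 overlap a GR peak and the last 2 have no GR peak in the locus. Capitals mark GC boxes (GGGCGG or CCGCCC), the E-box CACGTG, the AP-1 site TGANTCA and the GR hexamer AGAACA or TGTTCT.

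PTGER4, chr5:40679665-40679964, plus strand: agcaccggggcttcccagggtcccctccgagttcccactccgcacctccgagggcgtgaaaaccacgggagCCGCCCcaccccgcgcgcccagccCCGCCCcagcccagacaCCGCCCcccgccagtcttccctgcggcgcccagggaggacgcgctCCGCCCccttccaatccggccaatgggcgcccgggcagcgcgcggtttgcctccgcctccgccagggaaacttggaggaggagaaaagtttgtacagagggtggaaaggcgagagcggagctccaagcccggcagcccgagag
TIPARP, first start, chr3:156674340-156674639, plus strand: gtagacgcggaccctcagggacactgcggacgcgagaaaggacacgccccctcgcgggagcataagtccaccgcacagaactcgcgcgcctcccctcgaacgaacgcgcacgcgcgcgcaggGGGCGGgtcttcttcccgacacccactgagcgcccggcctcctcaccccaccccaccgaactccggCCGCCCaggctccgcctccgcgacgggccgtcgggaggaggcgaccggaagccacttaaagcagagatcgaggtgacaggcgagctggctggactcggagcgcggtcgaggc
RGS2, chr1:192808789-192809088, plus strand: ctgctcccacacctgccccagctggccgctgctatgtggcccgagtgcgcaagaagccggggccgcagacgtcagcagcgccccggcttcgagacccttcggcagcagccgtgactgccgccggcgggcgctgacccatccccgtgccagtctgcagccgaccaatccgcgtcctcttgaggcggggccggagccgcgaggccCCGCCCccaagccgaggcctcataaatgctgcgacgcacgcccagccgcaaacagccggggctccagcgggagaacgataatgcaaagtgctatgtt
GADD45B, chr19:2475877-2476176, plus strand: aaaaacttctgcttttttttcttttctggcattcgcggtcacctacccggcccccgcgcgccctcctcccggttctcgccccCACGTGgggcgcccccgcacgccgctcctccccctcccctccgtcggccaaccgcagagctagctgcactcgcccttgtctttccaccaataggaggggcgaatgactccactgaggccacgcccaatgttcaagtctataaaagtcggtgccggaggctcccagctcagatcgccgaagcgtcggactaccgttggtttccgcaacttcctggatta
BCL6, inner start, chr3:187736452-187736751, minus strand: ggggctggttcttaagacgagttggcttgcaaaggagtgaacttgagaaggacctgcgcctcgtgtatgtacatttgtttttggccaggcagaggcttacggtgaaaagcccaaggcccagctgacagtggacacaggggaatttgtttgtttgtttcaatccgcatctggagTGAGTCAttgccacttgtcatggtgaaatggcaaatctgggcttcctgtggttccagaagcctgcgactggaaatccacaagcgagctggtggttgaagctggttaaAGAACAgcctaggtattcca
ANXA1, chr9:73151615-73151914, plus strand: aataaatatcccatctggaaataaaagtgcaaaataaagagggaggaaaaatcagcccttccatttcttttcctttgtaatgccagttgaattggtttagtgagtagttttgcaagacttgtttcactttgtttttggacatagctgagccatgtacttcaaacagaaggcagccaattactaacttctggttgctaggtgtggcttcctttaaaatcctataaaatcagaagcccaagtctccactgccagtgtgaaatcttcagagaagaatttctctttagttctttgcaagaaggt

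The promoters of PTGER4, TIPARP and RGS2 were rich in G and C, at 72%, 71% and 69.7%, with 30, 41 and 32 CpG dinucleotides, and that of GADD45B had 61.7% and 27. The ANXA1 promoter had 37.7% and no CpG, and the inner BCL6 promoter 50.3% and 7. None of the 10 promoter entries of the members held the full GR element (AGAACA, any 3 bases, then TGTTCT, a sequence that reads the same on both strands), even with 1 mismatch in its 12 fixed letters; among all 35116 promoter entries, 1 (0.00285%) held the full element and 58 (0.165%) held it with at most 1 mismatch. The hexamer alone, which is also each arm of the full element, read on both strands, was in the inner BCL6 promoter and in 14.8% of all entries. The same BCL6 promoter held an AP-1 site (7.71% of all entries) and the GADD45B promoter an E-box (7.26%), each of which reads alike on both strands. GC boxes, searched on both strands, were in 5 of the 10 entries, from PTGER4, TIPARP, RGS2 and CRISPLD2, against 45% of all entries. No entry of the members held the cyclic AMP element TGACGTCA, which reads the same on both strands and was in 1.85% of all entries. These are letter matches and not shown to be bound.

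Across the 10 loci, fewer H4K12la peaks were listed with dexamethasone than without it. The loci held 91 and 81 peaks in the control libraries and 45 and 34 in the dexamethasone libraries, or 86 ± 7.07 against 39.5 ± 7.78 (mean ± SD, n = 2 each), a ratio of 0.459. The groups did not overlap and their difference was larger than the spread between replicates. A two-sided exact permutation of the 4 libraries had p = 0.33, and no smaller p can come from its 6 assignments. Whether replicates came from separate cultures is not stated, so this p measures only the spread between these libraries. Over whole lists the same ratio was 0.621, and over 16817 protein-coding gene loci with a peak in each group the median ratio was 0.571. With the 67582 highest peaks taken from each list, whole lists are equal in size by construction. The 10 loci then held 61 and 58 peaks in control and 45 and 34 in dexamethasone libraries, a ratio of 0.664. The median ratio was 0.8 over 15909 gene loci with a control peak, which unlike the set before include loci without a dexamethasone peak. Both medians are of single-locus ratios, while 0.459 and 0.664 pool the 10 loci.

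Both dexamethasone counts lay below both control counts at 9 of the 10 loci, the exception being CDKN1C, a pattern found at 63.6% of all gene loci with a peak. With equal peak numbers it was found at 4 of the 10 loci, PTGER4, GADD45A, GADD45B and SPSB1, and at 34.4% of all gene loci. GADD45B and GADD45A had the lowest ratios, 0.111 and 0.143, followed by RGS2 at 0.222. SPSB1 had the highest, 0.667.

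**Figure D1:**
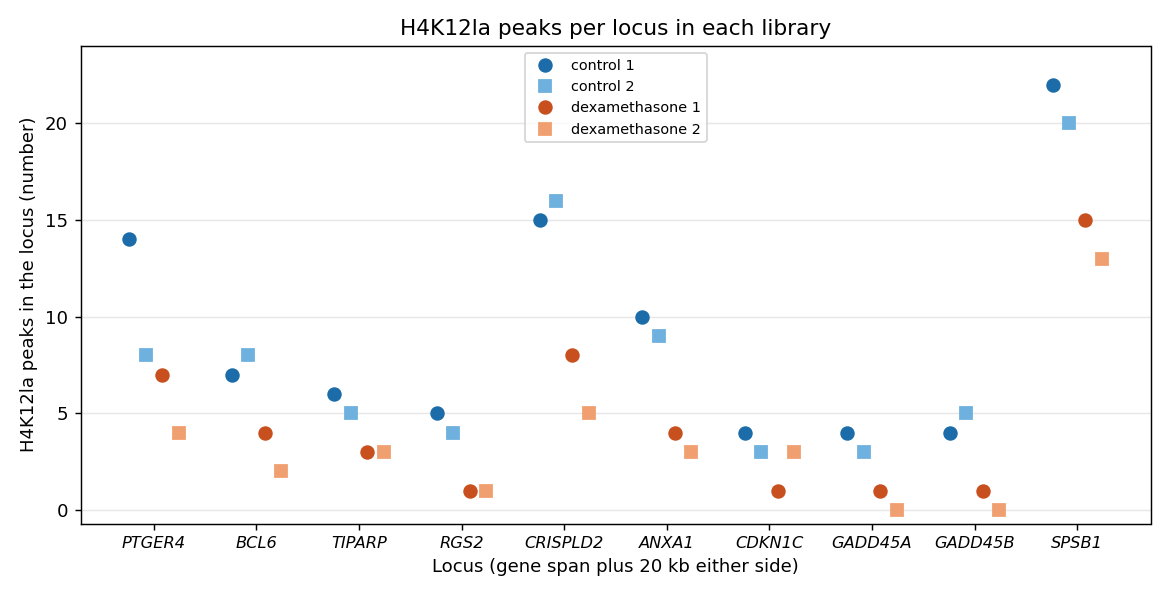
Number of H4K12la peaks (y axis) in each of the 10 loci (x axis) in the 2 control libraries (blue) and the 2 dexamethasone libraries (orange), each point 1 library. SPSB1 had 22 and 20 peaks in control against 15 and 13, whereas GADD45A and GADD45B had 1 peak in dexamethasone replicate 1 and none in replicate 2.

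Joining peaks of the 4 lists that share 1 bp gave 110 regions in the 10 loci. A region can chain peaks that do not all overlap one another, so its lists need not share a position. Of 68 regions in both control lists, 33 (48.5%) were in neither dexamethasone list, against 39.6% of all such regions in the genome. Another 20 (29.4%, against 35.1%) were in both dexamethasone lists, and 15 in 1 of them. Of the 24 regions in both dexamethasone lists, 2 were in neither control list, both at TIPARP, against 14.0% genome-wide. Regions of the control-only kind ran from 1 at TIPARP and CDKN1C to 7 at SPSB1, at loci of 72.2, 42.6 and 117 kb. The share of all gene loci with at least 1 such region was not computed, so these counts set the members apart from no other genes.

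At the start windows, 6 members had a peak in both control lists, beside 56.5% of all genes, and 4 of these 6 (PTGER4, BCL6, RGS2 and GADD45A) had none in either dexamethasone list. The same pattern held for 39.2% of the 11315 protein-coding genes with a start peak in both control lists. TIPARP and SPSB1 had a start peak in dexamethasone replicate 1 alone of the treated pair. No member had a start peak in dexamethasone replicate 2 and so none was marked in all 4 lists, as 19.4% of all genes were. CRISPLD2 and ANXA1 had a start peak in control replicate 1 only, and CDKN1C and GADD45B had none in any list, as did 31.7% of all genes.

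**Figure D2:**
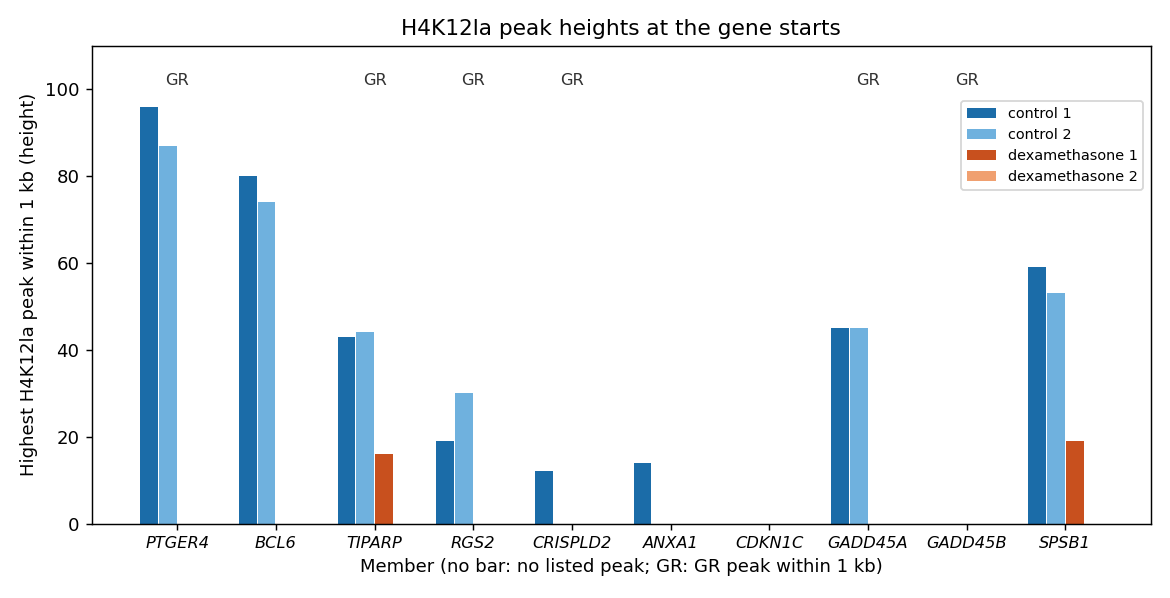
Height of the highest H4K12la peak within 1 kb of each member's start, or of either gene end for GADD45A, CDKN1C and SPSB1 (y axis), by member (x axis) and library (colours); a missing bar is a missing peak, and GR marks a GR peak in the same window. PTGER4 was the highest in control cells at 96 and 87, and the only dexamethasone bars are TIPARP at 16 and SPSB1 at 19, both in replicate 1.

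GR peaks were listed in 8 of the 10 loci, against 52.1% of all gene loci, and at the start windows of 6 members (PTGER4, TIPARP, RGS2, CRISPLD2, GADD45A and GADD45B), against 33.0% of all genes. Of the 6 members with a start peak in both control lists 4 had a GR peak there, against 53.7% of all such genes. The list gives GR positions from 1 library and no height. Its rows are numbered to 15183, but the list as deposited holds 8065, all of them used here. BCL6 and ANXA1, without a listed GR peak, are therefore not shown to lack GR. Over all RefSeq promoter entries, a GR peak lay within 1 kb of 38.4% of those with 65% or more G and C, of 28.6% of those between 50% and 65%, and of 4.49% of those under 50%. Start peaks of H4K12la in both control lists followed the same order, at 62.4%, 52.6% and 15.9%. Among the members, the 5 with a GR peak and a promoter entry had 61.7% or more at the first start, and ANXA1 and both BCL6 entries had 53% or less. The part of base composition in these GR positions was not tested.

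Of the 10 GR peaks in the loci, 8 met an H4K12la peak in both control lists, 5 of them in neither dexamethasone list, and none met one in all 4 lists. Over the 8065 GR peaks the shares were 79.6%, 34.9% and 24.3%. Of the 33 control-only regions of the loci, 5 held a GR peak and 28 did not, and none of the 20 regions in all 4 lists held one. Genome-wide GR peaks overlapped 8% of control-only regions and 7.58% of regions in all 4 lists.

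The first members act at receptors and G proteins. PTGER4 (gene ID 5734, chromosome 5, 40679915 to 40746800) encodes the EP4 receptor, through which prostaglandin E2 raises cyclic AMP. Its locus held 14 and 8 peaks in control against 7 and 4 after dexamethasone, or 11 ± 4.24 against 5.5 ± 2.12 (mean ± SD, n = 2). The peak at the start, over the promoter printed above, reached 96 and 87 in control and was in neither dexamethasone list. A GR peak of 997 bp overlapped it, from -981 bp to 15 bp relative to the start.

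Within the PTGER4 span, regions 2.08 kb and 8.32 kb from the start, with control heights of 44 and 55 and of 47 and 60, were also absent from both dexamethasone lists. The region 11.4 to 12.7 kb inside the gene was in all 4 lists, at 58 and 51 in control and 45 and 39 after dexamethasone. Further in, at 36.3 to 38.2 kb, control heights of 26 and 28 lay below those of 29 and 33 after dexamethasone. Both of its retained regions thus lay inside the gene, one lower and one higher with treatment. The second GR peak, 294 bp long, lay 8.96 kb beyond the gene at the start of the neighbour TTC33, in a region with heights of 83 and 113 in control, 28 in dexamethasone replicate 1 and none in replicate 2.

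RGS2 (gene ID 5997, chromosome 1, 192809039 to 192812275) encodes a regulator that speeds GTP hydrolysis by G protein alpha subunits. It had 5 and 4 peaks in control against 1 in each dexamethasone library, or 4.5 ± 0.707 against 1 ± 0 (mean ± SD, n = 2). The start region, from -0.97 to 0.643 kb, reached 19 and 30 in control and was listed in neither treated library, and a 772 bp GR peak spanned the start. Regions 11.4 kb upstream (10 and 16) and 17.9 kb from the start (13 and 16) were likewise listed in control cells alone. The median heights of the control lists were 24 and 26, and with equal peak numbers the locus kept 0 and 2 peaks in control and 1 in each dexamethasone library, so the difference at RGS2 was not seen on that scale. The region that stayed in all 4 lists lay 18.7 kb beyond the gene, with heights of 22, 27, 18 and 19.

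**Figure D3:**
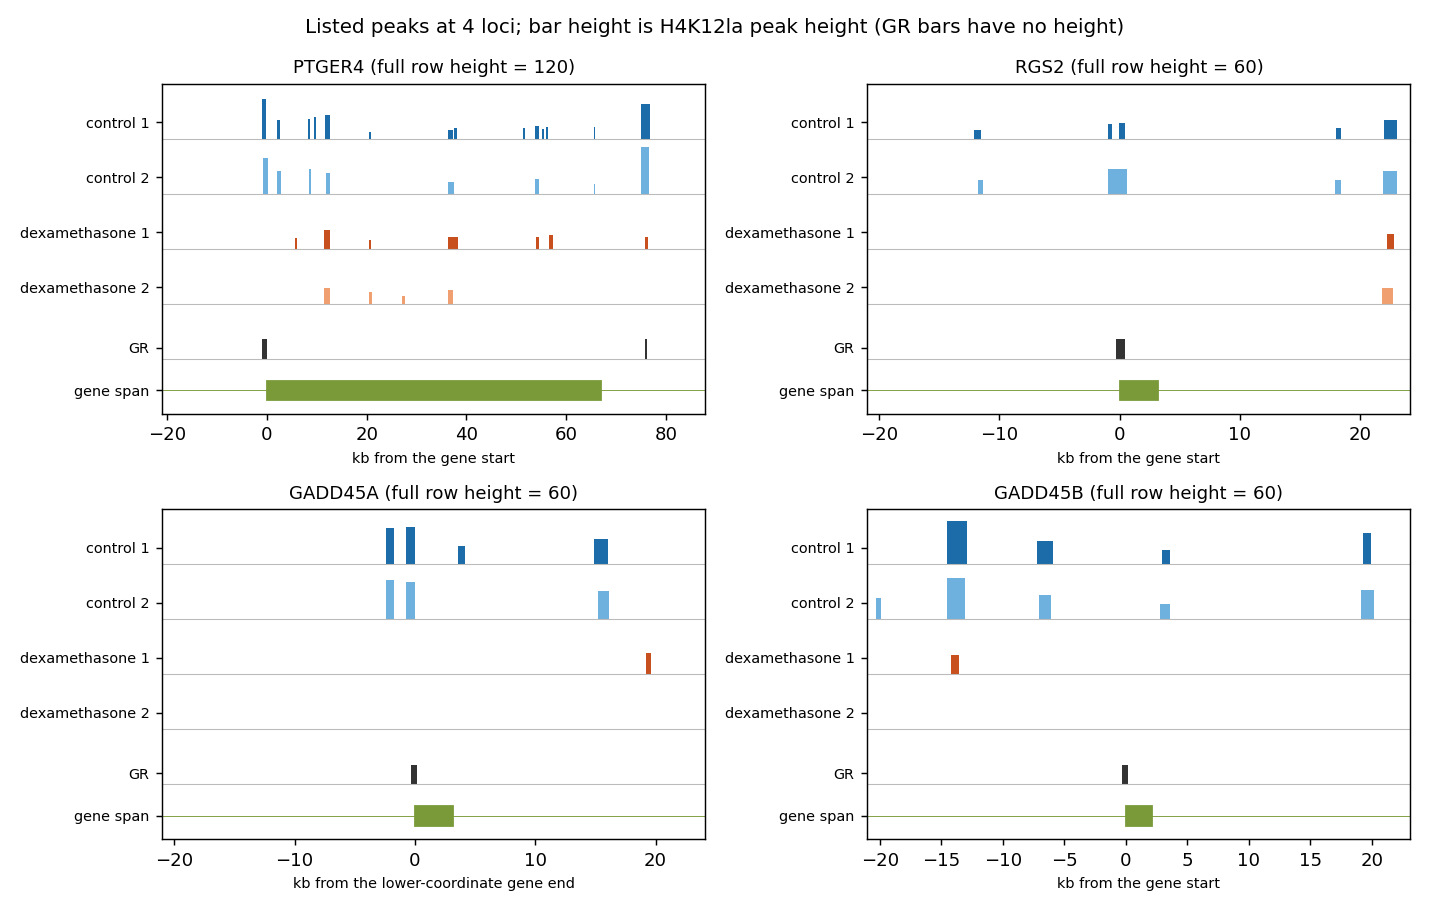
Positions of listed peaks at PTGER4, RGS2, GADD45A and GADD45B (x axis, kb from the gene start, or from the lower-coordinate end for GADD45A), with 1 row per library; bar height is H4K12la peak height on the scale in each panel title, GR bars have no height, and the green bar is the gene span. A GR bar stands at the start of PTGER4, RGS2 and GADD45B and at the lower-coordinate end of GADD45A, where the dexamethasone rows hold no bar; the second PTGER4 GR bar, at TTC33, stands with a dexamethasone replicate 1 peak of 28.

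BCL6 and TIPARP act in transcription. BCL6 (gene ID 604, chromosome 3, 187721377 to 187745468), a zinc finger repressor known from germinal centre B cells, held 7 and 8 peaks in control against 4 and 2 after dexamethasone, or 7.5 ± 0.707 against 3 ± 1.41 (mean ± SD, n = 2). Its control-only region with the highest peaks spanned 1999 bp over the inner start printed above, with heights of 80 and 74. At the outer start a peak of height 68 was listed in control replicate 2 alone. A region between these starts reached 67 and 63 in control but 18 in dexamethasone replicate 1 and none in replicate 2, and another, 1.09 kb inside the outer start, had 35 and 37 in control only. The region 15.6 kb inside the gene was in all 4 lists at 28, 21, 25 and 20, so that the height groups overlapped there. In it the peaks of control replicate 2 and dexamethasone replicate 2 did not overlap each other. No GR peak was listed within 20 kb of BCL6.

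TIPARP (gene ID 25976, chromosome 3, 156674590 to 156706770) encodes a mono-ADP-ribosyltransferase that is induced by the aryl hydrocarbon receptor and represses it. The locus had 6 and 5 peaks in control against 3 and 3 after dexamethasone, or 5.5 ± 0.707 against 3 ± 0 (mean ± SD, n = 2). Its start peak reached 43 and 44 in control but 16 in dexamethasone replicate 1, with none in replicate 2, and a GR peak ran from -428 to 260 bp relative to the first start.

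TIPARP was the member with regions in both dexamethasone lists and neither control list; at other members, regions found in dexamethasone cells alone were in 1 list. One TIPARP region lay 14.4 to 15.4 kb inside the gene, with heights of 27 and 28, and the other began 455 bp beyond the gene, with heights of 31 and 24, and neither overlapped a GR peak. A region 4.86 kb beyond the gene went the other way, at 44 and 35 in control and absent with dexamethasone. With equal peak numbers TIPARP had 3 peaks in each of the 4 lists. The lower number of peaks at TIPARP was therefore not seen on that scale.

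CDKN1C, GADD45A and GADD45B restrain growth. CDKN1C (gene ID 1028, chromosome 11, 2883218 to 2885775), an imprinted gene for the cyclin-dependent kinase inhibitor p57, had no H4K12la or GR peak in its span in any list. All peaks of the locus lay on the higher-coordinate side, 4 and 3 in control against 1 and 3 after dexamethasone (3.5 ± 0.707 against 2 ± 1.41, mean ± SD, n = 2), so the groups touched. The region 6.06 kb from the gene reached 32 and 40 in control but 16 in dexamethasone replicate 2 and none in replicate 1, and held a GR peak of 294 bp. The region 12.7 kb away, at 40 and 40, was listed in control cells only. The region in all 4 lists lay at the start of the neighbour SLC67A1, at 24 and 38 in control and 17 and 25 after dexamethasone, and its groups overlapped.

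GADD45A (gene ID 1647, chromosome 1, 67685201 to 67688334) encodes a stress sensor that binds MAP3K4 and cell cycle kinases. Peaks numbered 4 and 3 in control against 1 and 0 after dexamethasone, or 3.5 ± 0.707 against 0.5 ± 0.707 (mean ± SD, n = 2). A peak ending 26 bp before the lower-coordinate end had a height of 45 in both control libraries, and a second one 1.73 kb before that end had 44 and 48. Neither was in a dexamethasone list. A 503 bp GR peak crossed the same gene end and overlapped the nearer of them. The only dexamethasone peak of the locus, of 26 in replicate 1, lay 16.1 kb beyond the other end, where neither control list had one.

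GADD45B (gene ID 4616, chromosome 19, 2476127 to 2478257), its paralogue, differed in that a 544 bp GR peak covered the start while no H4K12la list had a peak within 1 kb of it. Of all genes with a GR peak at the start, 3.07% had no start peak in any of the 4 lists. H4K12la flanked the gene in control cells, with heights of 28 and 30 from -7.21 to -5.93 kb relative to the start and of 18 and 19 from 646 bp beyond the gene. Neither region was in a dexamethasone list, nor was the one 17 kb beyond the gene, at 38 and 36. The region from -14.5 to -12.9 kb had the highest peaks of the locus, 53 and 50 in control, with 24 in dexamethasone replicate 1 and none in replicate 2. At the edge of the locus, control replicate 2 alone had a peak of 26 at the start of the neighbour LMNB2. The whole locus held 4 and 5 peaks in control against 1 and 0 after dexamethasone, or 4.5 ± 0.707 against 0.5 ± 0.707 (mean ± SD, n = 2). At equal peak numbers the ratio was 0.143 at GADD45B and 0.167 at GADD45A, both still with groups that did not overlap.

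ANXA1 and CRISPLD2 encode proteins of inflammation control. ANXA1 (gene ID 301, chromosome 9, 73151865 to 73170393), a calcium-dependent phospholipid-binding protein that acts on formyl peptide receptors, held 10 and 9 peaks in control against 4 and 3 after dexamethasone, or 9.5 ± 0.707 against 3.5 ± 0.707 (mean ± SD, n = 2). The start carried a peak of 14 in control replicate 1 only, and no GR peak was listed in the locus. The highest peaks, 58 and 53 in control, lay 5.56 kb beyond the gene, where dexamethasone replicate 2 had 17 and replicate 1 none. Inside the gene a region 14.3 kb from the start was in all 4 lists, at 25 and 21 in control and 19 and 20 after dexamethasone. At equal peak numbers the locus had 5 and 3 peaks in control and 4 and 3 with dexamethasone, so that its groups overlapped.

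CRISPLD2 (gene ID 83716, chromosome 16, 84819985 to 84909508) encodes a secreted protein that binds bacterial lipopolysaccharide. The locus held 15 and 16 peaks in control against 8 and 5 after dexamethasone, or 15.5 ± 0.707 against 6.5 ± 2.12 (mean ± SD, n = 2). Its highest peaks stood not at the start but in a row of 4 regions from 9.21 to 20 kb inside the gene. Heights there ran from 70 to 92 in control replicate 1 and from 72 to 98 in replicate 2. The regions at 9.21 kb (83 and 87) and 16 kb (92 and 75) were in neither dexamethasone list. The one at 12.3 kb had 20 in dexamethasone replicate 1 and the one at 18.5 kb had 29 in replicate 2. The latter peak overlapped that of control replicate 2 but not that of control replicate 1.

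One GR peak of CRISPLD2, of 409 bp, covered its start, where control replicate 1 alone had a peak of 12. The other, of 464 bp, lay 31.3 kb inside the gene, within a control-only region with heights of 46 and 35. The region from -14.1 to -12.9 kb relative to the start was in all 4 lists and had the lowest height ratio of the 20 such regions in the loci, with 51 and 55 in control against 27 and 22. The other retained regions of CRISPLD2 were low. At 48.5 kb the heights were 16 and 16 against 18 and 17, but the control peaks there did not overlap each other and were joined through the dexamethasone peaks. The heights 12.9 kb beyond the gene were 14 and 20 against 20 and 17, where the groups overlapped.

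SPSB1 (gene ID 80176, chromosome 1, 9292894 to 9369532) encodes a SOCS box adaptor that brings inducible nitric oxide synthase and the type II TGF-beta receptor to a ubiquitin ligase. It was the most densely marked member, with 1.8 control peaks per 10 kb, against 0.762 to 1.62 at the others. The locus held 22 and 20 peaks in control against 15 and 13 after dexamethasone, or 21 ± 1.41 against 14 ± 1.41 (mean ± SD, n = 2), and peaks covered 17.1% and 16.6% of it in control and 14.8% and 13% with dexamethasone.

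The SPSB1 locus divided along its length. Of 9 regions in both control lists that began under 30 kb from the lower-coordinate end, flank included, 7 were in neither dexamethasone list and 2 were in both. Of 9 such regions from 30 kb on, all 9 were in both dexamethasone lists. The dividing point was chosen after the values were seen. Among the former was the region from 862 bp to 2.49 kb inside the gene, with heights of 59 and 53 in control. Dexamethasone replicate 1 had a peak of 19 just outside the same end, where the control lists had none. The only GR peak of the locus, of 668 bp, ended 2.23 kb outside that end and overlapped a control-only region with heights of 37 and 30.

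In 8 of the 11 SPSB1 regions held by all 4 lists, both dexamethasone heights were above both control heights, and in none were both below. Over the 29445 regions in all 4 lists, both were above in 25.9% and below in 39.4%. The widest SPSB1 regions were those 56.1 to 61.2 kb from the end, at 45 and 46 in control against 62 and 53 after dexamethasone, and 44 to 47.5 kb, with 47 and 43 against 59 and 65. At 51.8 kb the heights were 35 and 42 against 52 and 50. At 22.5 kb, 55 and 38 stood against 39 and 43, and the groups overlapped. When heights were replaced by their percentile rank within each list, both dexamethasone values were above in 10 of 11 SPSB1 regions and in 47.4% of all regions, and when divided by the list median in 8 of 11 and in 32.6%. The median log2 ratio of all regions was -0.06 for heights, 0.14 for percentile ranks and 0.02 for heights divided by the list median. A ratio of ranks is not the same quantity as a ratio of heights.

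**Figure D4:**
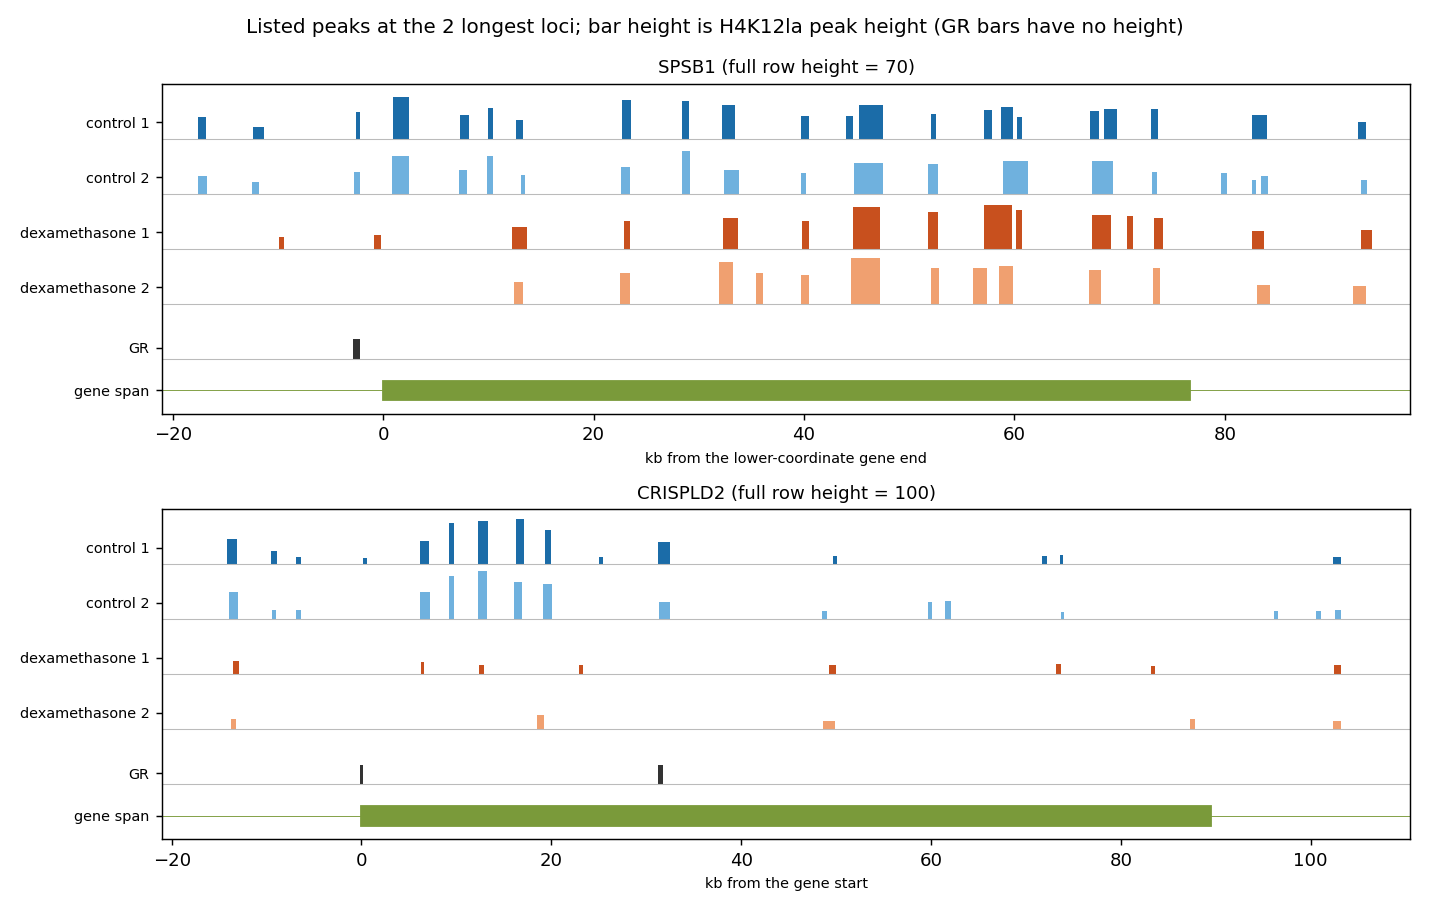
Positions of listed peaks at SPSB1 (x axis, kb from the lower-coordinate gene end) and CRISPLD2 (kb from the gene start), with 1 row per library; bar height is H4K12la peak height on the scale in each panel title, GR bars have no height, and the green bar is the gene span. At SPSB1 the dexamethasone rows follow the control rows from 30 kb on and hold 2 shared regions before it; at CRISPLD2 the control peaks of 70 to 98 between 9.21 and 20 kb have few counterparts.

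The median log2 height ratio, dexamethasone over control, was 0.13 over the 20 regions of the loci in all 4 lists and -0.06 over all regions of that kind. This value rested on SPSB1, which gave 11 of the 20 regions with a median of 0.33. The 9 regions of the other loci had a median of -0.23, with a range from -1.12 to 0.20, and came from 6 loci. TIPARP, GADD45A and GADD45B had no region in all 4 lists.

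**Figure D5:**
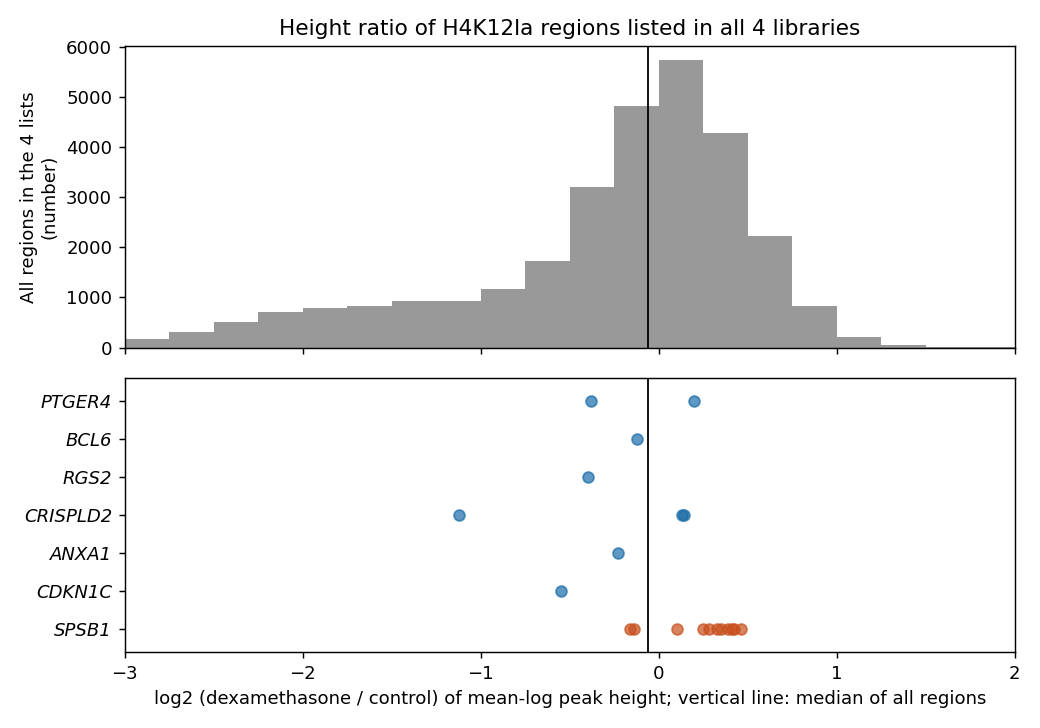
log2 ratio of H4K12la peak height, dexamethasone over control (x axis, difference of the mean log2 heights of 2 libraries each), for regions in all 4 lists; the upper panel is a histogram of all 29445 regions, the lower panel shows each region of the members as a point, and the line is the median of all regions, -0.06. The SPSB1 points (orange) lie between -0.16 and 0.46, and the lowest point is the upstream region of CRISPLD2 at -1.12.

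Of 58 relatives of the members by family or pathway (mainly prostaglandin synthesis and receptors, aryl hydrocarbon signalling, RGS proteins, annexins, kinase inhibitors, and GADD45 and SPSB partners), 39 had a start peak in both control lists. Of these 39, 13 (33.3%) had one in neither dexamethasone list, beside 39.2% of all such genes. Another 14 had one in both, beside 3888 of the 11315 protein-coding genes with a start peak in both control lists. A GR peak lay at the start of 15 of the 58 (25.9%), beside 33.0% of all genes. NQO1, a quinone reductase gene under aryl hydrocarbon receptor control, had the highest start peaks, at 274 and 244 in control and 26 and 34 with dexamethasone. RGS3 had 138 and 125 against 34 and 37, PARP14 107 and 96 against 29 and 27, ANXA7 60 and 128 against 26 and 26, and the prostaglandin E synthase genes PTGES3 92 and 93 against 16 and 16 and PTGES2 73 and 108 against none. The kinase inhibitor gene CDKN2C had 72 and 121 against 21 and 28, and RGS5 96 and 102 against 16 in replicate 1 alone. These 8 genes were picked for high control peaks, so their lower heights after dexamethasone are a description only. One relative, RGS10, named after its values were seen, had a start peak in both dexamethasone lists alone, at 32 and 29. Its locus held 7 and 7 peaks in control against 7 and 6 with dexamethasone. The share of all genes with such a start peak was not computed.

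Of 40 other glucocorticoid-induced genes, 28 had a start peak in both control lists. Of these 28, 13 (46.4%, beside 39.2% of all such genes) had one in neither dexamethasone list. Another 8 had one in both, beside 3888 of all 11315 such genes. GR peaks lay at the start of 22 of the 40 (55%, beside 33.0% of all genes). Both lists were drawn up with earlier results of these data known, and neither share was tested.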

How the data were processed

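H4K12la and GR were profiled by CUT&Tag in 786-O cells, with 2 control and 2 dexamethasone H4K12la libraries and 1 GR library, all of 1 batch label. Reads were trimmed with fastp 0.19.6, aligned with Bowtie2 to GRCh38 and handled with deepTools, per the submitters' processing notes. How peaks were called is not given in the sources used here. Each library has its own peak list as the authors deposited it. H4K12la lists hold positions and, per peak, a whole-number signal, the authors' own height, used here to describe and rank peaks. The GR list gives positions and lengths. Peaks off chromosomes 1 to 22, X and Y were left out (2.02% to 2.51% of H4K12la peaks, 0 GR peaks), and positions are 1-based.

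Genes and promoters came from RefSeq tables of GRCh38.p14, whose promoter entries gave start sites for 15843 of 20037 genes (79.1%), and both gene ends stood in for the rest. A list held a region, start window (1 kb either side) or locus on an overlap of 1 bp, and peaks sharing 1 bp were joined. The highest peak of a list stood for it. The number of peaks in the 10 loci was tested on the log2 scale by exact permutation of libraries (two-sided), and all other values are descriptive. Depth is unknown, and 2 libraries per group limit the precision.

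The members and lists were chosen with earlier results of these data known. All members were named, with neighbours whose start lay nearer to a peak, and the 8 relatives with the highest control start peaks by mean percentile rank. Marker genes and RGS10 were singled out after their values were seen. Results were recomputed with equal peak numbers, a height minimum of 20, other flanks (0 and 50 kb), windows (2.5 kb or gene ends), joining (500 bp), overlap and height scales, the replicate block, and leaving out each replicate. Leaving out the SPSB1 locus, or regions at other genes' starts, was added after seeing the data. The counting code was checked on made-up peak lists. The tools were scipy 1.17.1, pandas 2.3.3, numpy 2.4.6 and matplotlib 3.10.9 under Python 3.11.15.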

Additional observations from a re-analysis of the deposited data

How the results depend on the processing

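The log2 ratio of peak number in the 10 loci, -1.13 as reported, stayed below 0 under all 10 alternatives, from -1.37 without the SPSB1 locus to -0.60 with equal peak numbers, and from -1.34 to -0.93 when 1 replicate was left out. With the replicate block it was -1.13 (exact sign-flip test p = 0.5, the smallest that 2 pairs allow). Replicate numbers were not taken as pairs, and deviations of same-numbered libraries had a correlation of -0.0134 over the 29445 regions in all 4 lists. That correlation does not cover the number of peaks, where replicate 1 exceeded replicate 2 in both groups (91 and 81, 45 and 34). It therefore cannot settle whether peak numbers are paired. With the block the median height ratio was 0.13, as without it. The count of control-only regions, 33, was 22 with equal peak numbers, 16 within gene spans alone and 52 with 50 kb flanks, windows of other sizes by construction, and 38 to 48 when 1 replicate was left out, which loosens the definition. The count of dexamethasone-only regions, 2, was 6 with equal peak numbers, 1 within gene spans and 2 to 11 without 1 replicate (11 without dexamethasone replicate 2). Under these settings the shares over all regions, and over all genes for the start count below, were not computed. Whether the contrast of 48.5% in the loci with 39.6% of all regions holds with equal peak numbers is therefore not known. The count of regions with both dexamethasone heights below both control heights, 4 of 20, was 2 of 14 with equal peak numbers, 2 of 15 for heights of 20 or more and 2 of 14 within gene spans. It was 5 of 20 and 7 of 22 without control replicates 1 and 2, and 9 of 25 and 13 of 29 without dexamethasone replicates 1 and 2. Leaving out a replicate loosens this definition too, and the shares over all regions were not computed for it. The median height ratio of retained regions, 0.13, turned to -0.23 without the SPSB1 locus, and ranged from -0.20 to 0.15 without 1 replicate, with -0.01 and -0.20 without dexamethasone replicates 1 and 2. It was 0.23 with equal peak numbers, 0.25 for heights of 20 or more and 0.23 within gene spans. On percentile ranks it was 0.25, beside 0.14 over all regions, and on heights divided by the list median 0.22, beside 0.02. Where no construction is named, the cause was not tested. The control-only start count, 4, ran from 3 to 6 and the GR counts, 8 and 6, from 6 to 8 and from 6 to 7. Of 80 peak-number differences at single loci, 75 were below 0 and 5 were 0: TIPARP and RGS2 with equal peak numbers, and CDKN1C, GADD45A and GADD45B within gene spans alone. The 80 are the same 10 loci under overlapping settings, so they are not separate evidence. The share of all gene loci with a difference below 0 was not computed. The median ratio over gene loci was itself 0.571, and 0.8 with equal peak numbers.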
